A study of Mus musculus with 6 samples.

Results

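The clock output factors are 8 genes that carry the time signal of the circadian clock to other genes. They are Dbp, Tef and Hlf, which form the PAR bZIP family, and Nfil3, Bhlhe40, Bhlhe41, Ciart and Rora. The genes were chosen by name, and each of them had 1 row among the 54532 genes of the FPKM table. All 8 passed the filter on low values and were tested together with the other genes, 18035 in all. Of the 8, only Hlf differed between the genotypes at the threshold used. It was 1.95-fold lower in the Mc4r KO hearts.

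The study asked how loss of the melanocortin-4 receptor changes the heart before cardiac function is impaired. RNA was sequenced from the hearts of 3 Mc4r KO mice and 3 WT mice, all 12 weeks old, with 1 library per mouse. Both groups came from matings of heterozygous parents on the C57B/6/N background and lived on standard chow in a cycle of 12 hours of light and 12 hours of dark, so the WT mice were littermate controls for homozygous Mc4r KO mice. One label calls the tissue heart and another calls it muscle, the study's discussion names left ventricle, and neither the construction of the Mc4r allele nor the hour at which the hearts were taken is given in the sources used here.

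The circadian clock is a feedback loop of transcription. CLOCK and BMAL1 (the product of Arntl) switch on genes through E-box sequences, and the PER and CRY proteins made from some of these genes switch CLOCK and BMAL1 off again. DBP, TEF and HLF are activators that bind D-box sequences, and their genes are driven through E-boxes. NFIL3, also called E4BP4, binds the same D-boxes and represses. BHLHE40 and BHLHE41 repress at E-boxes, CIART binds BMAL1 and represses it, and RORA is a nuclear receptor that activates Arntl and other genes through ROR elements, where the REV-ERB proteins (Nr1d1 and Nr1d2) compete with it. In the heart, mice lacking the whole PAR bZIP family are known to develop enlargement of the organ, and many genes of metabolism and ion conduction follow the clock.

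The promoter windows of the members show which of these binding sequences lie next to their start sites. The windows, credited to RefSeq on GRCm38.p6, run from 250 bases before to 50 bases after an annotated start, and 7 of the 8 members had 1 or more of them (8 windows in all, with 2 alternative starts for Tef). Both strands were searched for the E-box CACGTG, its variant CACGTT, the D-box form TTANNTAA and the ROR element form TNGGTCA, and no matches overlapped. Given below are the windows of Hlf, the member that fell, and of Tef, its PAR bZIP relative whose libraries also did not overlap. Those of Ciart, which holds the most matches in a single window, and of Nfil3, the opponent of the family, are given too. All these windows have their matches in capitals. They lie at chr11:90390868-90391167 on the minus strand for Hlf, at chr15:81802423-81802722 and chr15:81811164-81811463 on the plus strand for Tef, at chr3:95882179-95882478 on the minus strand for Ciart and at chr13:52980990-52981289 on the minus strand for Nfil3.
Hlf: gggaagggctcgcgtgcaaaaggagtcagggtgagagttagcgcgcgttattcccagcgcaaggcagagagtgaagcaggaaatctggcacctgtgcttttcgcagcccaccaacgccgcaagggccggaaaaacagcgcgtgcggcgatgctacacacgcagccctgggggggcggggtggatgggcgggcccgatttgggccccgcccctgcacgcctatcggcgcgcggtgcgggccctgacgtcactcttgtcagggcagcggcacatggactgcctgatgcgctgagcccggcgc
Tef, first window: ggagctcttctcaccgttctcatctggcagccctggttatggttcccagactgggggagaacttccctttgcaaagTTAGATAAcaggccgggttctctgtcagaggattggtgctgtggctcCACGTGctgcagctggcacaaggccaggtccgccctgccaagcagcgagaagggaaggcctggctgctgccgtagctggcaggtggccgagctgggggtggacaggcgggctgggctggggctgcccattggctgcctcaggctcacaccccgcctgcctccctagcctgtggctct
Tef, second window: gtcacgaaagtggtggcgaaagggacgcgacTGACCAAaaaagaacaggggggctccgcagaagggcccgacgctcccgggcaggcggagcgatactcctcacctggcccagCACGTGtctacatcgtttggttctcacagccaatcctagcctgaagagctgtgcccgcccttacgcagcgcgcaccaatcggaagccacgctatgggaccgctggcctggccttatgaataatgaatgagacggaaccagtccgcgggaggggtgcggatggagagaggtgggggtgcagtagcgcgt
Ciart: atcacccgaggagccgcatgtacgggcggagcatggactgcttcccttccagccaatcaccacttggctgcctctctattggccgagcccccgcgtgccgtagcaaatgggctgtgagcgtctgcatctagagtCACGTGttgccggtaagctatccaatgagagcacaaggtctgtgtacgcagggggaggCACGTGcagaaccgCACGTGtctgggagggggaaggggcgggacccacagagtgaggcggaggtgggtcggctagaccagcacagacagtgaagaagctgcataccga
Nfil3: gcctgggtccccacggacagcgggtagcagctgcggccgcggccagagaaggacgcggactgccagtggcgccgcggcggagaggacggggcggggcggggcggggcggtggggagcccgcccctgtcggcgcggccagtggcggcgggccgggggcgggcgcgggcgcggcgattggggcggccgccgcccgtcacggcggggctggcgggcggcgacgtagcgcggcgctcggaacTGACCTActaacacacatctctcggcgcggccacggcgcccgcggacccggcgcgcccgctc

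The E-box CACGTG was present in 4 of the 8 windows of members, against 7.15% of 32851 windows of all genes. Ciart had 3 copies of it, starting at positions -116, -58 and -44 from the transcription start, each of the Tef windows had 1, and Bhlhe41 had 1 at position -153. The variant CACGTT was found in 0 of the 8 windows and in 4.68% of all windows. The D-box form was found in 1 window, the first of Tef (6.0% of all windows), and the ROR element form in 2, the second of Tef and that of Nfil3, where it starts at position -12 (11.0% of all windows). The windows of Hlf, Dbp and Rora held none of these letters, which says nothing about sites elsewhere in the genes. GC made up between 60.3% and 81.7% of the members' windows, and the median over all windows was 52.7%.

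The authors' table places the members on 7 chromosomes of mm10 (GRCm38), and all 8 are protein-coding. Hlf (ENSMUSG00000003949) spans 54360 bases of chromosome 11 from 90336536 to 90390895, with 6681 exonic bases. Dbp (ENSMUSG00000059824) lies on chromosome 7 from 45705088 to 45710203 and Tef (ENSMUSG00000022389) on chromosome 15 from 81802421 to 81826863. Nfil3 lies on chromosome 13 from 52967209 to 52981073, Ciart on chromosome 3 from 95878503 to 95882251 and Rora on chromosome 9 from 68653786 to 69388246. Bhlhe40 (108660629 to 108666925) and Bhlhe41 (145858243 to 145865558) share chromosome 6. In the GENCODE M21 annotation no exon of Hlf or Nfil3 overlaps another gene, and no stretch of 50 bases of either occurs in transcripts of another gene. Exons of Sphk2 on the opposite strand cover 18.01% of the exonic sequence of Dbp, and Gm43909 covers 19.0% of Bhlhe41. For Ciart, 11.9% of the 50-base stretches also occur in the pseudogene Gm9176, and for Tef, Bhlhe40 and Rora the opposite-strand overlap was 2.51% or less. No source used here says that the counting used strand, so reads in the overlaps cannot be assigned to one gene with certainty.

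Between 14691076 and 16047003 reads per library were counted on genes. Mc4r had 2 reads in WT replicate 3 and 0 in the other libraries, under the floor of 3 reads, so the gene does not check the genotype. Mitochondrial transcripts took 47.1% to 59.3% of the summed FPKM in WT and 43.0% to 46.6% in Mc4r KO. Of the markers of heart cells and neighbouring tissues, 32 of 36 were tested and 0 were called by limma or limma voom. At an unadjusted p under 0.05 (limma), 3 were higher and 8 lower, where 12.0% of all genes tested were higher and 8.83% lower. The summed FPKM of 5 cardiomyocyte markers ran from 4927 to 5408 in WT and from 5472 to 6038 in Mc4r KO. Of these 5, only Ryr2 separated the groups by itself. The sum of 4 fibroblast markers ran from 166 to 176 in WT and from 121 to 139 in Mc4r KO, and Dcn gave most of it. Dcn, Lum and Pdgfra were lower in Mc4r KO without overlap. Col1a1 went the other way, at 9.97, 15.4 and 20.9 FPKM in WT and 21.4, 21.9 and 17.2 in Mc4r KO, with overlap. The 4 atrial markers ran from 28.6 to 747 in WT, with the highest sum in WT replicate 3, and from 6.29 to 136 in Mc4r KO. Sln was listed at 0 in WT replicate 1 and in Mc4r KO replicates 2 and 3. In these libraries Myl7 had 2, 5 and 5 reads, Myl4 had 12, 23 and 22, and Nppa had 344, 71 and 595. The sums of the 4 red cell markers overlapped between the groups (788 to 6124 and 589 to 1541). So did those of 4 endothelial (130 to 163 and 143 to 169) and 3 smooth muscle markers (41.7 to 71.3 and 38.0 to 107). The sums of 4 macrophage markers overlapped too (43.8 to 79.6 and 57.3 to 75.7). Among single markers of these types, Csf1r and Cd68 (macrophage) were lower in Mc4r KO without overlap, with log2 fold changes of -0.37 and -0.42. Tie1 (endothelium) was higher without overlap, at 0.42. C1qa, the largest part of the macrophage sum, was at 0.63 with overlap, and the others of these types overlapped as well. The 4 adipocyte markers ran from 0.466 to 0.876 in WT and from 0.0283 to 0.223 in Mc4r KO, on very few reads. Cfd had 5, 11 and 9 reads in WT and 3, 0 and 0 in Mc4r KO. Adipoq, Plin1 and Lep had at most 3 reads in any library, so the adipocyte ranges lie near the floor. The 4 skeletal muscle markers ran from 0.812 to 1.48 in WT and from 0.782 to 1.32 in Mc4r KO. Lep and Myh4 were listed at 0 in each library. The part of these differences in the values of the clock output factors was not tested. In these bulk samples, fewer cells of a type and less RNA per cell cannot be told apart.

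Genes were compared with limma on log2(FPKM + 0.1), a scale that understates the change of genes with low FPKM. FPKM are reads divided by gene length and by a factor for the library, so levels of different genes can be compared roughly. The length used for each member is that of all its annotated exons, which can differ from that of the transcripts expressed. The library factors of this table are not plain totals of reads. They amount to between 95.5% and 106% of the reads on genes, and they leave median-of-ratios factors of 1 in each library. A gene was called at an adjusted p under 0.05, after Benjamini-Hochberg adjustment over all 18035 genes, together with an absolute log2 fold change above 0.75. This rule called 83 genes, or 0.46% of those tested, and 26 of them, or 0.144%, were lower in Mc4r KO. Among the 8 clock output factors it called 1, Hlf. An unadjusted p under 0.05 was reached by 3 members with lower values in Mc4r KO, Hlf, Tef and Bhlhe40, where 8.83% of all genes did so, and by 1 member with a higher value, Nfil3, where 12.0% of all genes did so. The median log2 fold change was -0.31 over the 8 members and -0.011 over all genes tested.

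**Figure D1:**
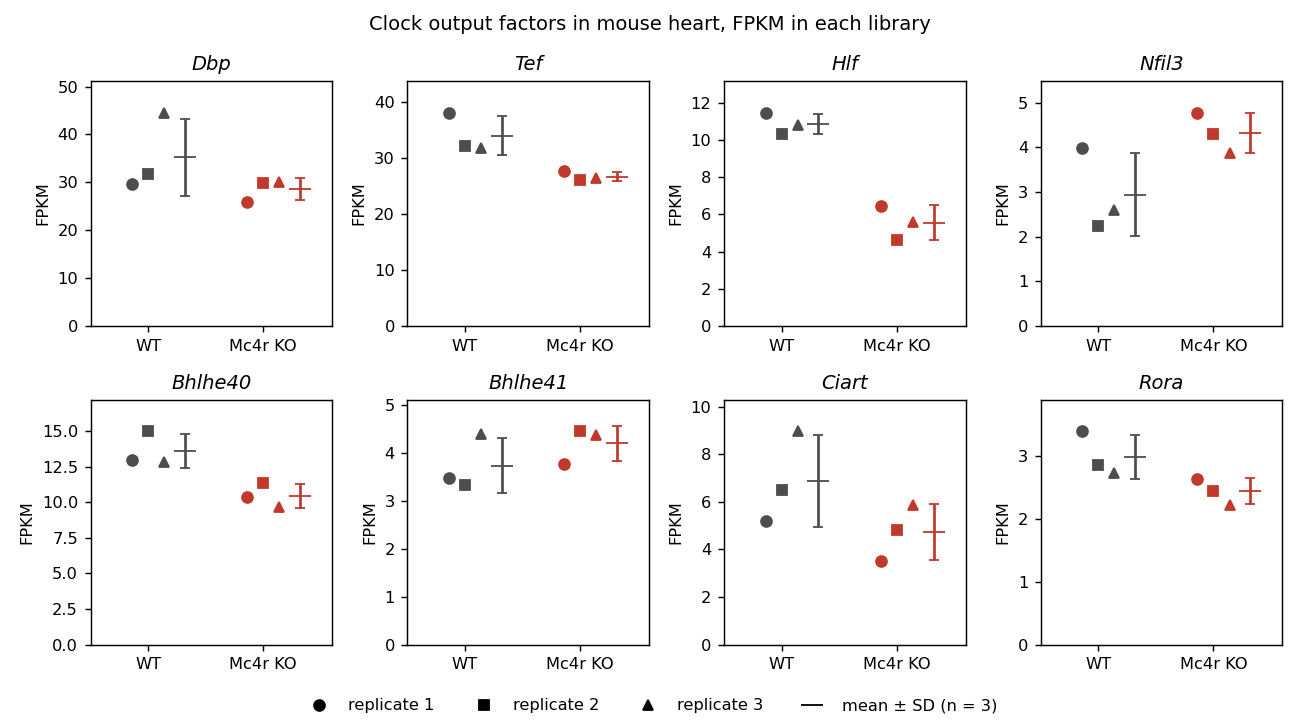
FPKM of the 8 clock output factors (vertical axes, each starting at 0) in the 3 WT libraries (grey) and the 3 Mc4r KO libraries (red), with the mean ± SD of each group beside the points. The Mc4r KO points of Hlf, at 4.61 to 6.47, lie well below the WT points, at 10.3 to 11.5, while the points of Dbp, Nfil3, Bhlhe41 and Ciart overlap between the groups.

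Hlf encodes hepatic leukemia factor, a PAR bZIP activator of D-box genes. In WT hearts, taken from replicate 1 to 3 here and for the genes that follow, its FPKM was 11.5, 10.3 and 10.8. In Mc4r KO hearts it was 6.47, 4.61 and 5.598. The lowest WT library stood far above the highest Mc4r KO library. These values rest on 993 to 1227 reads per WT library and 468 to 671 reads per Mc4r KO library. The group means were 10.9 ± 0.557 in WT and 5.56 ± 0.930 in Mc4r KO (SD, n = 3 each), so that Hlf fell by 48.8%. The log2 fold change was -0.97 (SE 0.13, 95% interval -1.28 to -0.65, limma adjusted p = 0.0415), and Hlf held place 65 of 18035 when genes were ordered by p. An exact two-sided permutation test gave p = 0.1, the smallest that 3 mice against 3 allow. Of the 18 alternatives, 12 can move the estimate, and it stayed negative in all 12, from -1.16 to -0.84, with the call kept in 6 and lost in 6. The other 6 leave the estimate as it is and can only change its p. Of these, 1 was identical to the reported fit, since the FPKM needed no further scaling, and the call was lost in 3. Adjusted p over the 18 ran from 0.00502 to 0.343 (limma).

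The call on Hlf depended on which libraries were used and on the covariate. Without WT replicate 3, the library with the most atrial RNA, the log2 fold change of Hlf was -0.97 and the call was kept (adjusted p = 0.02, limma), and in that fit 1.24% of 17966 genes were called lower. Leaving out any one of the other 5 libraries gave adjusted p between 0.0808 and 0.157 (limma), and Hlf was then not called. Limma voom on the recovered reads gave -0.98 and an adjusted p of 0.00502, with 0.688% of all genes called lower. With the mitochondrial share as a covariate, Hlf was at -1.02 with an adjusted p of 0.245 (limma).

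Tef, thyrotroph embryonic factor, is the member of the family with the steadiest values among the Mc4r KO mice. Its FPKM was 38.1, 32.2 and 31.8 in WT against 27.6, 26.0 and 26.4 in Mc4r KO, so the groups did not overlap. The means were 34.0 ± 3.52 and 26.7 ± 0.846 (SD, n = 3 each), and the log2 fold change was -0.34 (SE 0.09, limma adjusted p = 0.12). Tef was not called, and its value was -0.22 with the mitochondrial share as a covariate and -0.54 when FPKM were scaled to their sum outside the mitochondrial chromosome. This last scaling moved the median of all genes from -0.011 to -0.19.

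Dbp, D site albumin promoter binding protein, is the classical output gene of the clock. Its FPKM was 29.6, 31.7 and 44.5 in WT against 26.0, 29.9 and 30.1 in Mc4r KO. The groups overlapped, and WT replicate 3 stood above the other 5 libraries. The means were 35.3 ± 8.04 and 28.6 ± 2.33 (SD, n = 3 each), and the log2 fold change came to -0.28 (SE 0.16, limma adjusted p = 0.369), with a 95% interval from -0.65 to 0.097. The estimate was -0.10 without WT replicate 3, -0.47 with the scaling outside the mitochondrial chromosome and -0.71 with the mitochondrial share as a covariate. Sphk2, the gene on the opposite strand of part of Dbp, had 133 to 209 reads in WT and 241 to 260 in Mc4r KO, in the direction opposite to Dbp (adjusted p = 0.0904, limma).

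The family as a whole can be read roughly as a sum, because FPKM are corrected for the length of all annotated exons. Which transcripts were expressed was not tested. Dbp, Tef and Hlf together reached 79.1, 74.2 and 87.0 FPKM in WT against 60.1, 60.5 and 62.1 in Mc4r KO. Dbp and Tef made up most of this sum in each library, and Hlf was the smallest part. Hlf contributed 14.5%, 13.9% and 12.4% in WT and 10.8%, 7.62% and 9.02% in Mc4r KO. The ratio of Hlf to Tef, which no scaling of a whole library can move, was 0.301, 0.322 and 0.339 in WT and 0.234, 0.177 and 0.212 in Mc4r KO. The ratio of Hlf to Dbp was 0.387, 0.326 and 0.242 in WT and 0.249, 0.154 and 0.186 in Mc4r KO, where the highest Mc4r KO library passed the lowest WT library. These sums and ratios were chosen with the values known and carry no test.

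**Figure D2:**
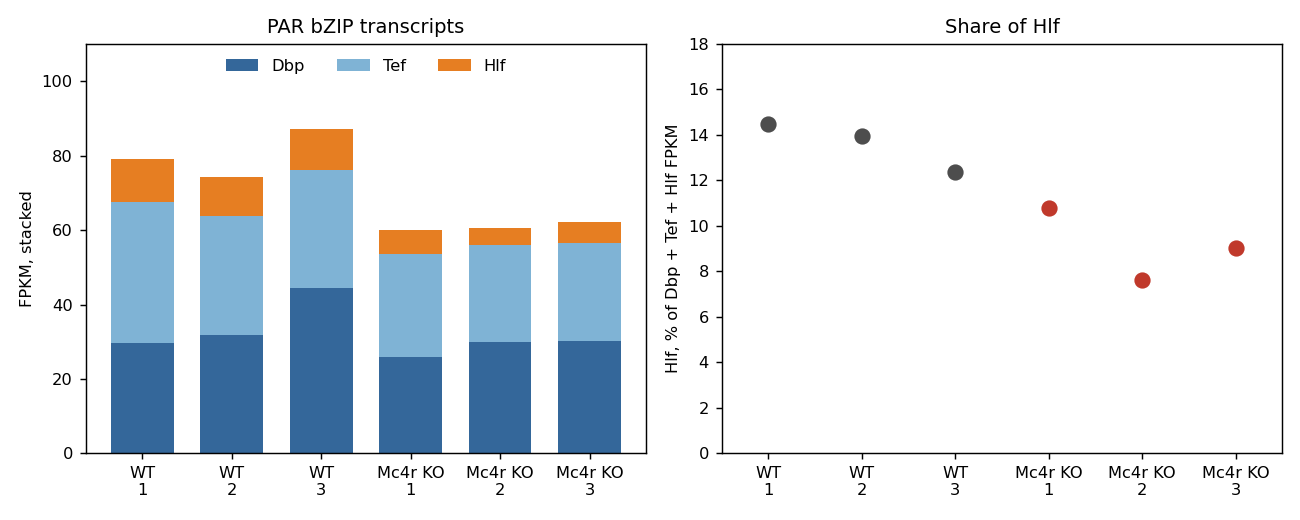
Left, FPKM of Dbp, Tef and Hlf stacked for each library (vertical axis from 0). Right, the share of Hlf in that sum in percent, grey for WT and red for Mc4r KO. The stacked sums lie at 74.2 to 87.0 FPKM in WT and 60.1 to 62.1 FPKM in Mc4r KO, and the share of Hlf is at 12.4% to 14.5% and 7.62% to 10.8%.

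Nfil3 represses the genes that the PAR bZIP factors activate. Its FPKM was 3.99, 2.23 and 2.61 in WT against 4.77, 4.29 and 3.88 in Mc4r KO. WT replicate 1 lay just above the lowest Mc4r KO library, and the other WT libraries were lower than all Mc4r KO libraries. The counts behind these values are small, with 65 to 114 reads in WT and 126 to 150 in Mc4r KO. The means were 2.94 ± 0.925 and 4.31 ± 0.447 (SD, n = 3 each), and the log2 fold change came to 0.57 (SE 0.21, limma adjusted p = 0.194). Nfil3 was not called. The sum of the PAR bZIP transcripts divided by Nfil3 was 19.8, 33.2 and 33.4 in WT and 12.6, 14.1 and 16.0 in Mc4r KO. The ratio of Hlf alone to Nfil3 was 2.87, 4.63 and 4.13 in WT and 1.36, 1.08 and 1.44 in Mc4r KO. Both ratios set members with estimates of opposite sign against each other, which widens the gap between the groups. They were chosen with the values known and carry no test.

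Bhlhe40 and Bhlhe41, also called Dec1 and Dec2, are paralogous E-box repressors, and their estimates had opposite signs, a difference that was not tested. Bhlhe40 was at 13.0, 15.0 and 12.9 FPKM in WT and 10.4, 11.3 and 9.68 in Mc4r KO, without overlap. Its log2 fold change was -0.38 (SE 0.10, limma adjusted p = 0.118), and it was -0.57 with the scaling outside the mitochondrial chromosome. Bhlhe41 was at 3.48, 3.33 and 4.40 FPKM in WT and 3.77, 4.45 and 4.38 in Mc4r KO, and the groups overlapped widely. Its log2 fold change was 0.17 (SE 0.14, limma adjusted p = 0.532), and its sign was negative in 2 of the 12 alternatives that can move it, at -0.020 with the scaling outside the mitochondrial chromosome and -0.093 with the mitochondrial share as a covariate. It was 0.095 without WT replicate 2 and 0.29 without WT replicate 3. The ratio of Bhlhe40 to Bhlhe41 was 3.73, 4.51 and 2.92 in WT and 2.75, 2.55 and 2.21 in Mc4r KO. It too was chosen with the values known and carries no test. Neither gene was called.

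Ciart, also called Chrono, represses CLOCK and BMAL1 and carries the 3 E-boxes printed above. Its FPKM was 5.18, 6.50 and 8.96 in WT and 3.53, 4.80 and 5.87 in Mc4r KO. The groups overlapped, and WT replicate 3 was again the highest library. The means were 6.88 ± 1.92 and 4.74 ± 1.17 (SD, n = 3 each), and the log2 fold change came to -0.52 (SE 0.24, limma adjusted p = 0.278). It was -0.32 without WT replicate 3, -0.33 without Mc4r KO replicate 1 and -1.07 with the mitochondrial share as a covariate, and it was not called in any of these fits. Gm9176, the pseudogene that shares sequence with Ciart, had at most 8 reads in any library. The ratio of Dbp to Ciart was 5.72, 4.88 and 4.96 in WT and 7.35, 6.22 and 5.12 in Mc4r KO, with overlap between the groups.

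Rora, the activator at ROR elements, had the lowest mean level of the 8 genes over the 6 libraries. It was at 3.39, 2.85 and 2.73 FPKM in WT and 2.64, 2.45 and 2.22 in Mc4r KO. The groups did not overlap, though the lowest WT library stood only just above the highest Mc4r KO library. The log2 fold change was -0.28 (SE 0.13, limma adjusted p = 0.279). It was -0.47 with the scaling outside the mitochondrial chromosome and -0.095 with the mitochondrial share as a covariate. Rora was not called.

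Taking the members side by side, the genotypes were fully separated in 4 of 8, Tef, Hlf, Bhlhe40 and Rora, and all 4 were lower in Mc4r KO, a state shared by 12.4% of all genes tested. In order of level over the 6 libraries, Dbp (mean FPKM 31.96) and Tef (30.3) came first, followed by Bhlhe40 (12.0), Hlf (8.21), Ciart (5.81), Bhlhe41 (3.97), Nfil3 (3.63) and Rora (2.71). The ranges of neighbours in this order overlapped, except that each library had more Tef than any library had Bhlhe40. The means of Nfil3 stood at different places in the groups. Nfil3 came last in WT, at 2.94 beside 2.99 for Rora, while in Mc4r KO it came after Ciart, at 4.31 beside 4.198 for Bhlhe41. In Mc4r KO each library of Nfil3, at 3.88 or more, was above each of Rora, at 2.64 or less. In WT each library had more Hlf, at 10.3 or more, than any had Ciart, at 8.96 or less, and more Ciart, at 5.18 or more, than any had Bhlhe41, at 4.40 or less. The ranges of both pairs overlapped in Mc4r KO.

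The core clock, from which these factors take their rhythm, was compared by a list of 17 genes, of which 15 were expressed highly enough to be tested. None of the 15 was called by limma (adjusted p 0.107 to 0.969) or by limma voom. At an unadjusted p under 0.05 (limma), 2 were lower and 1 higher, where 8.83% of all genes tested were lower and 12.0% higher. The median log2 fold change was -0.11. Arntl, which encodes BMAL1, had the largest estimate, at 0.252 ± 0.135 FPKM in WT and 0.536 ± 0.0801 in Mc4r KO (SD, n = 3 each), from 14, 43 and 29 reads against 54, 60 and 75. Its log2 fold change was 0.92 (adjusted p = 0.194, limma). Per3 was at 6.57 ± 1.44 and 4.08 ± 0.459 (SD, n = 3 each, log2 fold change -0.66, limma adjusted p = 0.107), and Per1 at 20.5 ± 2.31 and 14.6 ± 1.87 (SD, n = 3 each, log2 fold change -0.49, limma adjusted p = 0.108). The libraries of Arntl, Per3 and Per1 did not overlap between the groups.

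A second list held 12 genes outside the clock that were chosen as clock-controlled, and all 12 were tested. None was called by limma (adjusted p 0.133 to 0.956) or by limma voom. At an unadjusted p under 0.05 (limma), 3 were lower and 0 higher, where 8.83% of all genes tested were lower and 12.0% higher. The median log2 fold change was -0.034. Pdk4, a kinase that restrains pyruvate oxidation, was at 54.3, 126 and 108 FPKM in WT and 115, 121 and 290 in Mc4r KO, with 1 Mc4r KO library far above the other 5 and the remaining libraries overlapping between the groups. Its log2 fold change was 0.82 (adjusted p = 0.333, limma). Nampt, an enzyme of NAD synthesis, was at 45.7 ± 9.51 and 32.1 ± 4.37 (SD, n = 3 each, log2 fold change -0.50, limma adjusted p = 0.167). Tspan4, a tetraspanin, was at 17.7 ± 3.25 and 13.2 ± 1.65 (SD, n = 3 each, log2 fold change -0.41, limma adjusted p = 0.211). Kcnip2, which had the lowest p of the list, was at 39.2 ± 0.542 and 29.8 ± 4.61 (SD, n = 3 each, log2 fold change -0.41, limma adjusted p = 0.133). The libraries of Nampt and Kcnip2 did not overlap between the groups, while those of Tspan4 did.

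**Figure D3:**
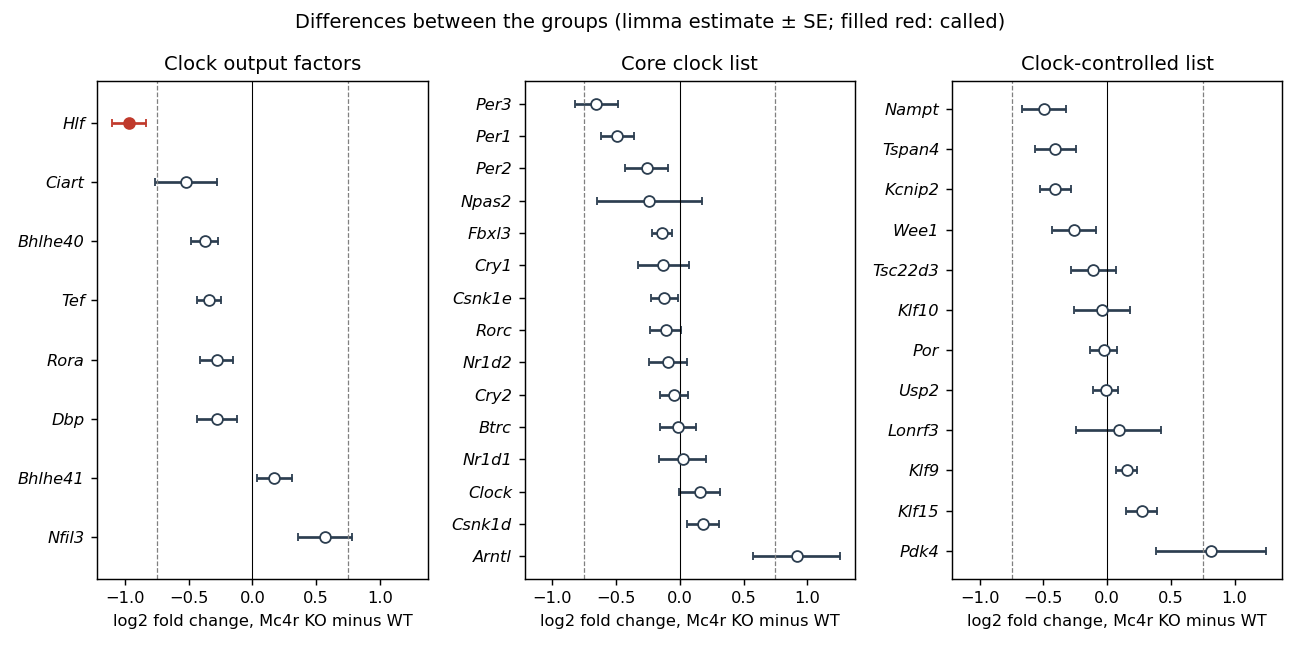
Log2 fold change of Mc4r KO against WT (horizontal axis, limma estimate ± SE) for the clock output factors, the 15 tested genes of the core clock list and the 12 genes of the clock-controlled list. Dashed lines stand at an absolute log2 fold change of 0.75, and the filled red point, Hlf at -0.97, is the only gene called among the genes shown.

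The authors' table also assigns genes to families of transcription factors, and Dbp, Tef, Hlf and Nfil3 are among 48 genes it lists as bZIP. Of these, 44 were tested and 1 was called, which was Hlf. By the size of its fall Hlf was second among the 44, after Fosb, which had a mean of 0.205 FPKM in WT and 0.0378 in Mc4r KO and was not called (adjusted p = 0.23, limma). In level, Dbp was at place 2, Tef at place 3, Hlf at place 15 and Nfil3 at place 28 of the 44. The median log2 fold change of the 40 bZIP genes that are not clock output factors was -0.034.

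Genes whose values over the 6 libraries ran most like those of a member were found by the Euclidean distance between centred log2 profiles, for the 4 members without overlap and among 11297 genes whose FPKM averaged 1 or more. For Hlf they were Adam19 (distance 0.194) and Rnf138 (0.235), with log2 fold changes of -0.91 and -0.83. For Tef they were Fam8a1 (0.0485) and Purb (0.0652), for Bhlhe40 Rubcn (0.107) and Serinc5 (0.135), and for Rora Ids (0.0996) and Dennd6a (0.1). None of these 8 genes was called (adjusted p 0.0589 to 0.452, limma). With only 6 libraries many profiles lie close together, and the distances are a description.

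**Figure D4:**
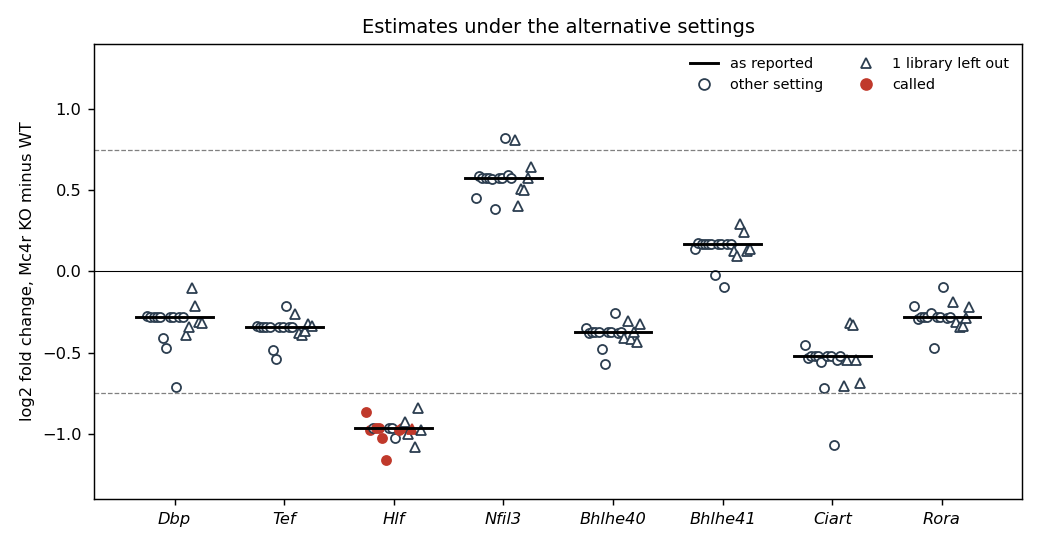
Log2 fold change of each clock output factor (vertical axis) as reported (black line) and under 18 alternative settings, with circles for other settings, triangles for fits that left out 1 library, and filled red marks where the gene was called. Hlf stays between -1.16 and -0.84 and is called in 6 of the 12 settings that can move an estimate and in 3 of the 6 that cannot. The other members are called in 0 of 18, and Bhlhe41 crosses 0.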

How the data were processed

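RNA of 6 mouse hearts was sequenced, 1 library per mouse. The authors' submission names mm10, CASAVA and HISAT2 2.0.5, and the deposited table gives 1 FPKM per gene and library, without deposited counts. The annotation release is not given in the sources used here, but 97.944% of the gene lengths equal the union of GENCODE M21 exons. Whole reads were recovered from the FPKM steps for 100% of the values within 0.05 of a read. All per-library columns were matched to a sample. The deposited fold changes and p-values of the authors' own comparison were not used.

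FPKM were scaled by the median of ratios (all factors 1), genes averaging 0.1 FPKM or more were kept, and log2(FPKM + 0.1) was compared with limma 3.58.1 in R 4.3.3 (empirical Bayes with a trend, 2-sided, Benjamini-Hochberg adjustment over all genes). The limma step was also run on simulated reads with planted changes. The simulation gave all genes the same dispersion and had no outlying library, so it does not show how the step performs on these libraries. Calls required a log2 fold change beyond 0.75 in either direction and an adjusted p below 0.05. The limma p-values set the difference between the group means against the spread between the 3 mice of each group. For each gene, that spread was combined with a trend fitted over all genes tested.

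The members, the lists of core clock, clock-controlled and marker genes and the tests were chosen with earlier results of these data known. Named besides the members are the 3 genes of each clock list with the largest absolute log2 fold change and the 2 nearest profiles of each member without overlap. Sphk2, Gm43909 and Gm9176, which share sequence with members, Fosb, Kcnip2 and the marker genes were named after their values were seen. Alternatives varied the pseudocount, filter, scaling, trend, covariates, genes tested, threshold, unit (limma voom on reads) and libraries.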

Additional observations from a re-analysis of the deposited data

How the results depend on the processing

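Each clock output factor was refitted under 18 alternatives. Only 12 of these can move an estimate. The other 6 (the unscaled FPKM, both other filters, no trend, the replicate block and protein-coding genes only) repeat it, and the fit on unscaled FPKM is identical to the reported fit. The sign was kept in all 12 for 7 members, and it reversed for Bhlhe41 in 2, at -0.020 with FPKM scaled to the sum outside the mitochondrial chromosome and -0.093 with the mitochondrial share as a covariate. The 1 call among the members, Hlf, became 0 without a filter on low values (adjusted p = 0.343, limma), without a variance trend (0.141), with the replicate block (0.0989) and with the mitochondrial share (0.245). The number of members called ranged from 0 to 1 when 1 library was left out, and was 1 only without WT replicate 3. The causes were not tested. Over all genes 83 were called, of which 68.7% were higher in Mc4r KO. The count was 44 with a pseudocount of 1, 10 without a filter, 147 with a mean FPKM of at least 1, 49 after quantile normalization, 21 without a trend, 11 with the replicate block, 2 with the mitochondrial share, 317 with limma voom and 204 among protein-coding genes. It was 41 with the scaling outside the mitochondrial chromosome, of which 39.0% were higher. Leaving out 1 library gave 7 to 726 calls, with 726 without WT replicate 3 and 7 to 14 without any one of the others. The sources used here do not say whether the replicate numbers pair the mice. The correlations of deviations of same-numbered libraries were -0.141, 0.00735 and -0.0818. Centred values of 3 mice per group over mostly unrelated genes cannot decide it. The replicate block lowered the SE of each member, for Ciart from 0.244 to 0.102, and pairing was not tested. Nfil3 rests on 65 to 150 reads per library, which limits its precision.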

Other observations

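Within each group, Dbp and Ciart ordered the libraries in the same way. Replicate 1 was lowest and replicate 3 highest for both genes in WT and in Mc4r KO. Whether the numbers pair the mice is not given. By distance of profiles Dbp held place 25 of 11297 among the genes nearest to Ciart, but Ciart only place 672 among those nearest to Dbp. In Tef and Rora, replicate 1 was the highest library of each group. Rora held place 50 among the profiles nearest to Tef, and Tef place 41 among those nearest to Rora. The PAR bZIP genes were not close to each other. Tef was at place 643 and Dbp at place 2599 for Hlf, Tef at place 2928 for Dbp, and Dbp at place 5462 for Tef. These places were looked up after the values were seen and carry no test.

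Of the 40 bZIP genes outside the clock output factors, none was called by limma or limma voom. At an unadjusted p under 0.05 (limma), 5 were higher and 5 lower, where 12.0% of all genes tested were higher and 8.83% lower. The 4 of these 40 with the lowest p, a choice made after the values were seen, were Ddit3, with a log2 fold change of 0.65 (adjusted p = 0.0554, limma), Atf5 at 0.63 (adjusted p = 0.0766, limma), Nfe2l2 at -0.45 (adjusted p = 0.0766, limma) and Atf4 at 0.39 (adjusted p = 0.0962, limma).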
